A study of Mus musculus with 38 samples.

Results

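H3K9me3, the trimethylation of lysine 9 of histone H3, was compared between IκBα-WT (WT) and IκBα-KO (KO) mouse embryonic stem cells (mESCs). The comparison took the 6 H3K9me3 libraries, 3 per genotype, of the 38 samples of the series, and their called regions on chromosomes 1 to 19. The cells were of the ES-E14TG2a line, grown on gelatin with leukaemia inhibitory factor and serum, and harvested undifferentiated (0 h). KO clones had received CRISPR-Cas9 with 2 guides against exon 1 of Nfkbia, which encodes IκBα, the inhibitor that holds NF-κB in the cytoplasm. WT clones had received non-targeting scrambled guides. The study describes 3 clones per genotype, each grown from a sorted single cell, and the calls of all 3 libraries of a genotype were made against 1 input library. Nfkbia itself had no H3K9me3 call in any of the 6 libraries, so these lists carry no check of the knockout.

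The labelled cell type was read from H3K4me3 and H3K27ac calls at marker promoters. Of 8 embryonic stem cell markers, 5 to 7 carried H3K4me3 and 7 carried H3K27ac in each library. The Esrrb promoter window was marked in none, although H3K4me3 covered 3750 to 5948 bp of its gene body in WT and 9928 to 13785 bp in KO. Of 6 fibroblast markers 2 carried H3K4me3 and 1 to 3 carried H3K27ac, with Col1a2 and Postn lacking both. Of 5 primitive endoderm markers 1 carried H3K4me3 and 2 to 3 carried H3K27ac, with Sox17 and Dab2 lacking both. The 6 lists held 33027 to 47464 regions with 8048837 to 11248081 ChIP reads, or 49.4 to 62.1 ChIP reads per kb of called sequence.

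H3K9me3 is written by SETDB1, the SUV39H enzymes and related methyltransferases and is bound by HP1 proteins. It marks repressed repeats, zinc-finger and receptor gene clusters and, on 1 parental copy, the control regions of imprinted genes. At those control regions the DNA-methylated copy is bound by ZFP57, a KRAB zinc-finger protein that recognises methylated TGCCGC and recruits TRIM28 and SETDB1. Imprinted genes are transcribed from the maternal or the paternal copy only, and many of them regulate growth. Reads were not assigned to parental copies here.

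Sequence called in at least 2 of 3 WT libraries and in 0 KO libraries is termed lost sequence. Of 68 promoter windows of listed imprinted genes in the RefSeq promoter table (GRCm38.p6, the 250 bases before a start), 18 windows from 15 genes lay wholly inside lost sequence. TGCCGC or its reverse complement GCGGCA occurred in 7 of these 18 windows, from 6 genes. Over all 31365 windows of this length on chromosomes 1 to 19 the share was 8.69%. The nearer sets, which include the 7, held it in 11 of the 68 imprinted windows and in 18 of all 163 windows inside lost sequence. Among the 7 are overlapping Mest windows, starting at chr6:30737800 and chr6:30737803, that hold the same matches. Whether these letters go with the loss was not tested. A match of these letters is a description and not a measured binding site. The windows of 5 of the 6 genes are printed to show sequence that had no H3K9me3 call in KO. The window of Meg3, in a segment of chromosome 12 where the inputs differed, is left out. The printed windows are written 5′ to 3′ on the strand of the gene with the matches in capitals.
Zdbf2 (chr1:63200108-63200357, plus strand, inside the Gpr1 gene): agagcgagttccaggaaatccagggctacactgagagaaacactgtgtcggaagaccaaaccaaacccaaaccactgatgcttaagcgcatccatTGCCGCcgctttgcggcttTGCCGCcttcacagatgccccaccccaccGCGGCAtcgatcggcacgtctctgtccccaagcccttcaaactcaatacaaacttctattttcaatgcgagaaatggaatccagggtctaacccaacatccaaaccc
Mest (chr6:30737800-30738049, plus strand): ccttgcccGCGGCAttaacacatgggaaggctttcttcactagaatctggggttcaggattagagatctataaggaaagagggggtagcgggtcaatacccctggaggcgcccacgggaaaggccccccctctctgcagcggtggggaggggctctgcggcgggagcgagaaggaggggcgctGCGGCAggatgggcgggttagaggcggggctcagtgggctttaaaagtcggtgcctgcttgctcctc
Mcts2 (chr2:152686898-152687147, plus strand, inside the H13 gene): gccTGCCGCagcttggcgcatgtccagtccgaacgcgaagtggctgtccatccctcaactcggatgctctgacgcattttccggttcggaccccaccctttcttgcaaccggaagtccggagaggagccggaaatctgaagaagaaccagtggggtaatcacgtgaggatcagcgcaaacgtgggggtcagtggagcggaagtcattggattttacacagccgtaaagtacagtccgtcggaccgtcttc
Nap1l5 (chr6:58907127-58907376, minus strand, inside the Herc3 gene): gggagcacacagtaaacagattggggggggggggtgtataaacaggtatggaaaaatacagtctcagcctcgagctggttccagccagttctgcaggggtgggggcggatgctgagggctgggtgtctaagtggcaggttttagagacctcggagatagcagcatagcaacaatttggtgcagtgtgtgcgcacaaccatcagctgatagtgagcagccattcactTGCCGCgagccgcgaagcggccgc
Plagl1 (chr10:13090582-13090831, plus strand): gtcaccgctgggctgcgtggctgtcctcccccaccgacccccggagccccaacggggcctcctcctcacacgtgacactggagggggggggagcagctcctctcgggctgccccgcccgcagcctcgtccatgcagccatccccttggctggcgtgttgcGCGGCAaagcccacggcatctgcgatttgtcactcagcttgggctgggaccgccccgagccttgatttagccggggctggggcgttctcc
The Zdbf2 window held 3 matches, the Mest window 2 and the other windows 1 each.

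Imprinted genes had the largest relative difference in covered sequence among the 8 gene classes compared. H3K9me3 covered 12.5%, 13.03% and 12.9% of the 4.03 Mb of imprinted genes in the WT libraries and 6.76%, 5.75% and 6.16% in the KO libraries. The groups did not overlap, with means of 12.8% ± 0.302 (SD, n = 3) in WT and 6.22% ± 0.505 (SD, n = 3) in KO (exact permutation p = 0.1, the smallest that 3 against 3 libraries allow, and 0.114 after Benjamini-Hochberg adjustment over 8 classes). The enrichment of ChIP over scaled input within each library's own imprinted calls was 3.596 ± 0.113 in WT and 2.94 ± 0.112 in KO (SD, n = 3, exact permutation p = 0.1). This ratio is over different sequence in each genotype, since the WT calls include stretches that had no call in KO, and where the same 36 imprinted regions were called in all 6 libraries the median log2 fold change of read density was 0.06.

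A gene was counted as having less covered sequence in KO when each KO library covered fewer bp of its body than each WT library and the means were at least 1000 bp apart. By this rule 27 of the 48 imprinted genes with a call, 56.2%, had less covered sequence and 0 had more. Over all 9248 protein-coding genes with a call, 10.2% had less (942 genes) and 4.65% had more (430 genes). The median difference was -3136 bp for imprinted genes and -214 bp for all protein-coding genes. Several imprinted genes lie inside or beside one another and share their calls, among them Herc3 with Nap1l5, Igf2r with Airn and Blcap with Nnat, and are not independent. Of the 5 imprinted genes in the 3 segments where the inputs differed, 3 had less covered sequence, and outside them 24 genes had less and 0 had more.

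In 12 imprinted genes the mark was called in each WT library and in 0 KO libraries. Mest, which encodes a hydrolase-like protein made from the paternal copy, had 16400, 15400 and 17400 bp covered in the WT libraries. Herc3, a ubiquitin ligase gene, had 22200, 22600 and 23198 bp, and H13, the gene of signal peptide peptidase, had 11800, 11400 and 12400 bp. Inpp5f, an inositol phosphatase gene, had 10600, 13000 and 9800 bp. All of these values were far from the 0 bp of each KO library.

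Short and nested genes were also among these 12. Blcap had 9439, 10639 and 11039 bp covered in WT, and Nnat, the neuronatin gene in its intron, was covered over its whole 2445 bp in each WT library. H19, a maternally transcribed non-coding RNA gene, was covered over its whole 2615 bp in each WT library, as were Zrsr1 over 4492 bp and Nap1l5 over 1844 bp. Snurf, which lies within Snrpn, had 3849, 5049 and 7649 bp. Meg3, a maternally transcribed non-coding RNA gene, had 11126, 21926 and 15926 bp but lies in the chromosome 12 segment. Mcts2, nested in H13, had 912 bp in each WT library and is too short for the 1000 bp rule.

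In other imprinted genes a residue of H3K9me3 was called in KO. Grb10, whose product restrains insulin and growth factor receptors, had 31800, 31000 and 35600 bp covered in WT and 11800, 7400 and 12600 bp in KO. Gnas, the gene of the stimulatory G-protein alpha subunit, had 20544, 20944 and 20944 bp in WT and 1944, 2144 and 0 bp in KO. Plagl1, a zinc-finger transcription factor gene, had 16200, 23200 and 22800 bp in WT and 1600, 0 and 0 bp in KO. In Gnas and Plagl1 the residue was called in some KO libraries only, with 26.4 to 31.8 ChIP reads per kb at Gnas, and a missing call does not show that the mark was absent. Igf2r, the receptor that clears IGF2, had 18064 to 21064 bp in WT and 464 to 1264 bp in KO. Snrpn, which encodes a splicing protein, had 16400 to 22800 bp and 1600 to 2600 bp, and Peg3, another zinc-finger gene, 9431 to 13431 bp and 0 to 3200 bp.

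**Figure D1:**
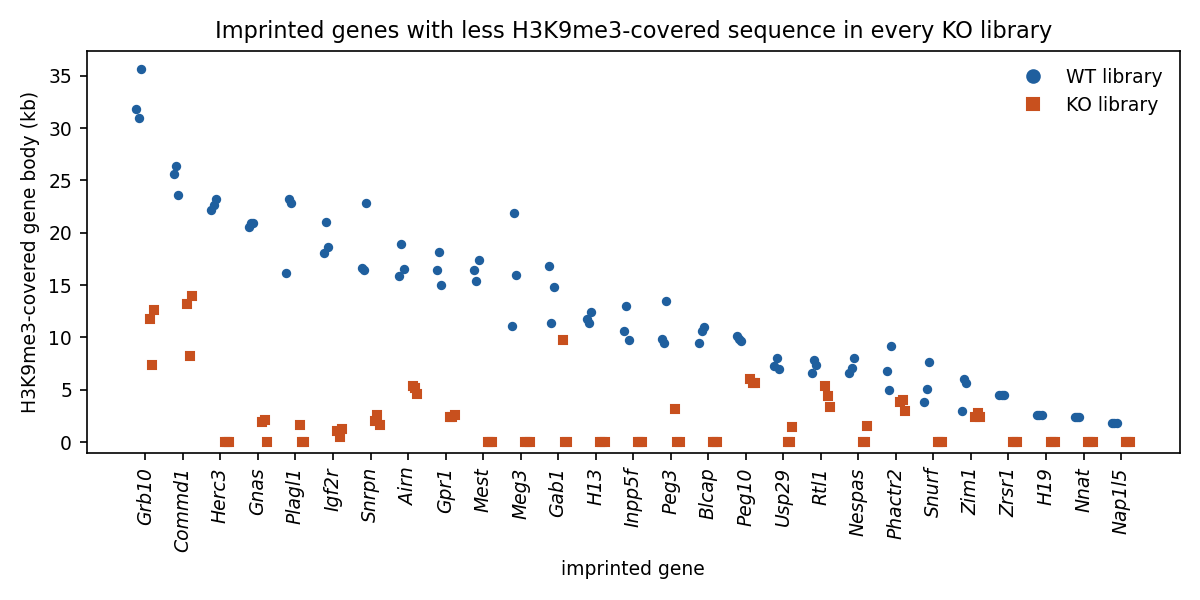
H3K9me3-covered sequence of the gene body (kb, y axis) for the 27 imprinted genes with less covered sequence in each KO library (x axis). Points are single libraries (circles WT, squares KO), and the KO points lie below the WT points of the same gene, as the choice of genes requires, and at 0 in all 3 KO libraries for Mest, Herc3 and H13 among others.

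The imprinted genes that did not pass the rule differed in either direction. Kcnq1, a potassium channel gene, had 50400, 52800 and 58239 bp in WT and 66642, 51800 and 56842 bp in KO, and the groups overlapped. Rasgrf1, Calcr, Ppp1r9a and Slc22a2 also overlapped, with mean differences of -1600, -1521, 1267 and -533 bp. Trappc9, the host gene of Peg13, had 29600, 28800 and 29600 bp in WT and 29400, 19600 and 21000 bp in KO, so that KO replicate 1 lay among the WT libraries. Peg13, an imprinted non-coding RNA gene, was covered over its whole 4725 bp in WT and over 4725, 4524 and 4324 bp in KO. Kcnq1ot1, the antisense RNA gene that silences its neighbours, had 35749 to 40749 bp in WT and 33600 to 36800 bp in KO, although the stretch over its start, chr7:143291601-143299800, was lost.

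Lost stretches of at least 1000 bp that overlapped a listed imprinted gene or the 5000 bp before it numbered 43, with a summed length of 301.8 kb. The Herc3 and Nap1l5 stretch was chr6:58897001-58919600 (22600 bp), the Igf2r and Airn stretch chr17:12732601-12749800 (17200 bp), the Peg3 and Usp29 stretch chr7:6721001-6737800 (16800 bp) and the Mest stretch chr6:30728601-30745000 (16400 bp). Each of these holds the start of at least 1 of its genes. ChIP reads per kb of the WT calls were 71.6, 58.8 and 55.9 at Herc3 and 91.0, 91.4 and 80.5 at Mest. At the stretch of Blcap and Nnat, chr2:157553201-157567000, they were 136 and 132 in WT replicates 2 and 3 and higher still in WT replicate 1, the highest of the 43 stretches. At the H19 stretch, chr7:142574801-142588200, which runs over the gene and beyond its start, they were 115, 85.1 and 84.6.

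The other histone modifications were read over the same 43 stretches. Their calls did not place the stretches, but the imprinted gene list was chosen with earlier results of these data known. H3K4me3, found at active promoters, covered 5.97% ± 0.2997 of the stretches in WT and 11.9% ± 0.882 in KO (SD, n = 3, exact permutation p = 0.1). H3K27me3, the Polycomb mark, covered 16.6% ± 1.19 and 30.7% ± 1.19. H3K4me1, an enhancer mark, covered 45.9% ± 1.76 and 61.3% ± 0.251, and H3K27ac, found at active promoters and enhancers, 43.9% ± 2.95 and 54.0% ± 1.08. For each of the 4 marks the KO libraries lay above the WT libraries (exact permutation p = 0.1 each). Over the 32 stretches outside the 3 segments the differences were 6.84, 16.9, 22.0 and 14.1 percentage points, in the same order of marks.

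H3K4me3 cover was higher in each KO than in each WT library at 15 of the 43 stretches, 34.9%, and lower at 0. Over all 7421 lost stretches of at least 1000 bp, 0.768% were higher and 0.0943% lower by the same rule. These were not matched to the imprinted stretches in width or in promoters held, so the shares of each mark are not a like comparison. H3K27me3 was higher at 8 imprinted stretches, 18.6%, and lower at 0, beside 0.795% higher and 0.512% lower over all lost stretches. H3K4me1 was higher at 10 and lower at 3, beside 1.13% and 1.01%. H3K27ac was higher at 6 and lower at 5, beside 1.33% and 1.29%. The 5 stretches with less H3K27ac were 3 at Meg3 and 1 at Mirg, in the chromosome 12 segment, and 1 at Grb10.

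At the Mest stretch all 4 marks were higher in KO. H3K4me3 covered 0 bp in each WT library and 2056, 2976 and 2523 bp in the KO libraries. H3K27ac covered 0 bp in each WT library and 16400, 12800 and 12800 bp in KO, and H3K4me1 0 bp and 16400, 16400 and 15600 bp. H3K27me3 covered 0, 3600 and 0 bp in WT and 10200, 10200 and 9600 bp in KO. Active and Polycomb marks thus lay over the same stretch in KO, and whether they lay on the same copy or in the same cells cannot be told apart in these lists.

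The H19 stretch also had more of all 4 marks. H3K27ac covered 600, 200 and 2200 bp of it in WT and 12600, 11600 and 11400 bp in KO, and H3K27me3 6000 to 10800 bp and 12200 to 12400 bp. At Plagl1 H3K27me3 covered 2000 to 4800 bp in WT and 8400 to 10400 bp in KO, and H3K4me3 0 bp in WT and 905 to 1019 bp in KO. At Herc3 and Nap1l5 H3K27me3 covered 0 bp in WT and 5800, 5400 and 3600 bp in KO, with H3K27ac at 0 bp in all 6 libraries. The Gpr1 and H13 stretches were covered by H3K27ac over their whole 11400 bp in all 6 libraries. There H3K4me3 differed, with 0 to 1188 bp in WT and 2180 to 2350 bp in KO at Gpr1, and 542 to 911 bp and 1905 to 2135 bp at H13.

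**Figure D2:**
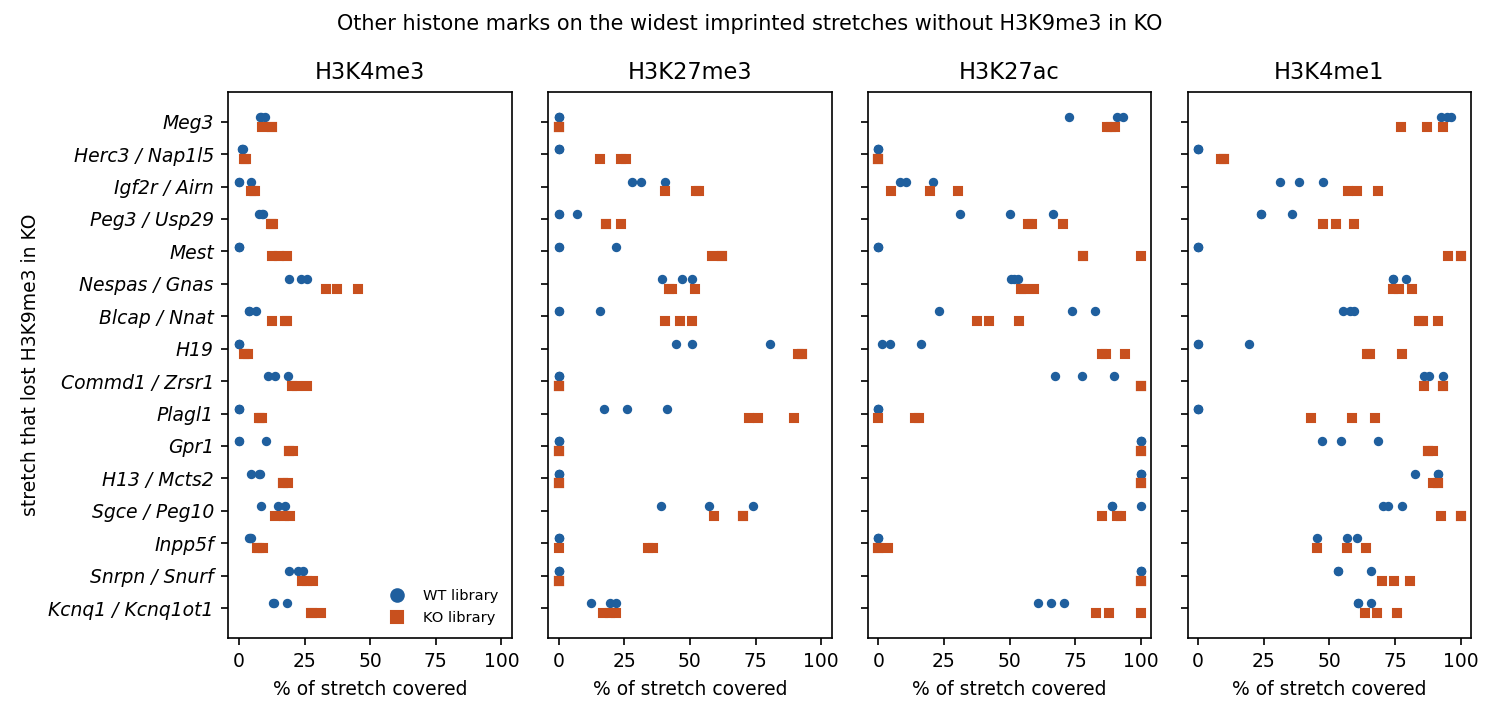
Share of each stretch covered by calls of 4 other histone marks (x axes, percent) for the 16 widest imprinted lost stretches (y axis, named by the listed genes they overlap). Points are single libraries (circles WT, squares KO), and at Mest, H19, Plagl1 and Blcap with Nnat the KO squares lie to the right of the WT circles for 3 or 4 of the marks.

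The 3 segments where the inputs differed are a distal one of chromosome 2, one of chromosome 8 from 40 Mb to near its end and a distal one of chromosome 12 that holds Meg3. Among protein-coding genes outside them, 877 of 8748 with a call had less covered sequence in KO and 337 had more. Over all protein-coding genes the 942 with less became 462 when the same number of top-ranked calls, 33027, was taken from each list. The matching count of genes with more is not given here. Whether genes with less still outnumber genes with more in that setting is therefore not shown. The largest difference was at Dnah8 (chr17:30624354-30877365), an axonemal dynein heavy chain gene of the sperm tail. It had 71000, 74565 and 74200 bp covered in WT and 22200, 0 and 0 bp in KO, but the difference was 0 bp with equal numbers of calls. ChIP reads over the Dnah8 calls were 38.8 to 48.3 per kb in WT beside unscaled input reads of 44.7 to 45.4 per kb, and the part of this high input in the difference was not tested.

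Tmem161b (chr13:84222296-84296141), which encodes a membrane protein, had 28400, 29600 and 30600 bp in WT and 7800, 3400 and 8600 bp in KO. Sntg1 (chr1:8361475-9299878), the gene of gamma-1-syntrophin, had 188078, 194200 and 192200 bp in WT and 180078, 152800 and 158600 bp in KO. C130026I21Rik (chr1:84992690-85270566) lies in a cluster of multicopy genes, where reads may be split between copies, and its value is uncertain. It had 204077, 200077 and 198911 bp in WT and 141311, 150311 and 162111 bp in KO, and the difference of -49777 bp became 40067 bp with equal numbers of calls. Gm42416, Gm37013 and Gm37388 are nested models that span the clustered protocadherin genes on chromosome 18, and their differences of -25867, -25400 and -25133 bp describe the same sequence. With Herc3 these are the 8 genes with the largest decrease of covered bp.

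The 8 genes with the largest increase were led by Tns3 (chr11:8431652-8664535), the gene of the focal adhesion protein tensin 3. It had 17800, 29000 and 14400 bp covered in WT and 38200, 42800 and 53800 bp in KO. Tbl1xr1 (chr3:22076652-22216594), a subunit of the NCoR and SMRT corepressor complexes, had 52400, 60400 and 60000 bp in WT and 76400, 79600 and 84000 bp in KO. Pakap (chr4:57568179-57896982) and Akap2, a kinase anchor gene inside it, had 51600 ± 3219 and 50200 ± 1908 bp in WT and 75267 ± 4700 and 72400 ± 2458 bp in KO (SD, n = 3). Etv5 (chr16:22381309-22439719), an ETS factor gene downstream of fibroblast growth factor signalling, had 8400, 15892 and 11600 bp in WT and 28092, 20200 and 28692 bp in KO.

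Pcnt, the pericentrin gene, Nedd4, a ubiquitin ligase gene, and Ddx46, a splicing helicase gene, completed these 8. KO replicate 2 stood above the other KO libraries in each of them, with 34200, 32400 and 19800 bp, against 13000 to 13200, 8800 to 20200 and 12200 to 13800 bp. The WT libraries had 2600 to 4800, 0 to 8600 and 0 to 4200 bp. Without KO replicate 2 the differences of 16600 bp at Pcnt and 15400 bp at Nedd4 were 9567 and 9433 bp. The calls behind them held few reads, with 23.6 to 29.8 ChIP reads per kb in KO at Pcnt, 23.4 to 27.5 at Nedd4 and 23.0 to 26.6 at Ddx46, beside unscaled input reads of 26.1 to 29.8, 23.2 to 25.7 and 25.1 to 25.4 per kb.

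**Figure D3:**
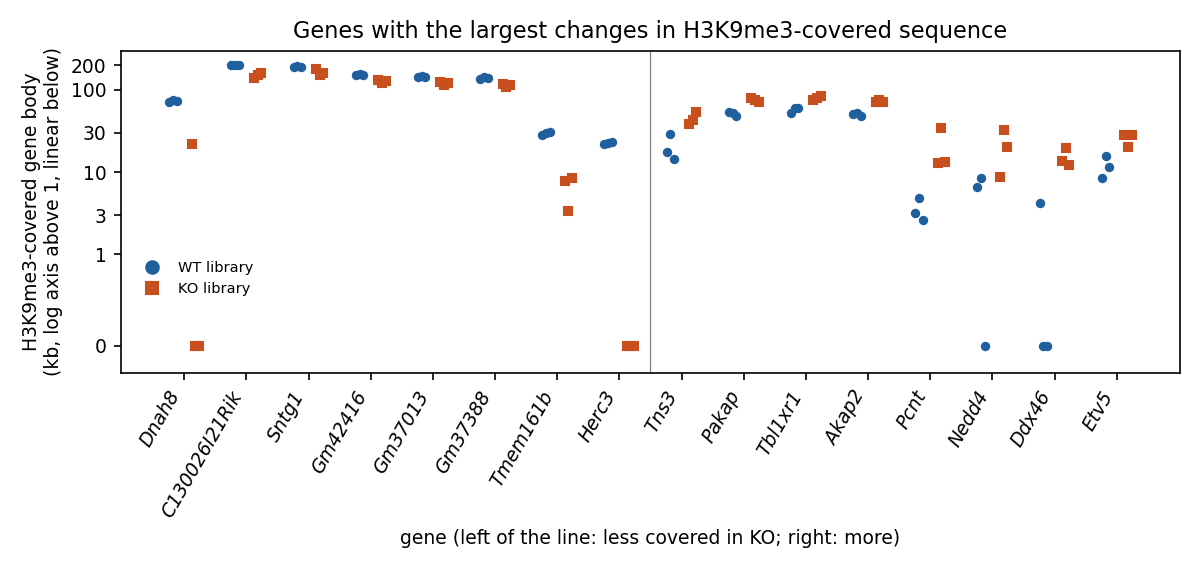
H3K9me3-covered gene body (kb, y axis, log above 1 and linear below) of the 8 protein-coding genes with the largest decrease (left of the line) and the 8 with the largest increase (right) outside the 3 segments. Points are single libraries (circles WT, squares KO), and for each gene the KO squares lie wholly below or wholly above the WT circles, as the choice of genes requires.

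Covered sequence differed by -10.6% between the genotypes over the whole of chromosomes 1 to 19 and by -12.7% outside genes, and the other gene classes are given beside these values. The relative difference was -8.47% for zinc-finger genes, -12.7% for clustered protocadherin genes, -21.3% for vomeronasal and -22.6% for olfactory receptor genes. Vomeronasal receptor genes, which detect pheromones, were covered over 13.1%, 13.6% and 12.5% of their sequence in WT and over 10.1%, 10.4% and 10.4% in KO (exact permutation p = 0.1). Of 161 members with a call, 17 had less covered sequence, 10.6%, which is near the 10.2% of all protein-coding genes, and 0 had more. Vmn2r30 had 14609, 17973 and 11809 bp in WT and 7209, 8009 and 6209 bp in KO, with input reads of 48.1 to 49.9 and 31.6 to 42.4 per kb. Vmn2r44, Vmn2r60 and Vmn2r50 had mean differences of -7133, -5667 and -5655 bp.

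Olfactory receptor genes, the odorant receptor family, were covered over 4.41% to 4.65% in WT and 3.22% to 3.74% in KO (exact permutation p = 0.1). Of 212 with a call 13 had less, 6.13%, and 2 had more, 0.943%, both below the 10.2% and 4.65% of all protein-coding genes. The gene classes were not matched for length, and the 1000 bp rule is harder to pass in short genes. The 1128 olfactory receptor genes span 7.52 Mb, and the 20807 protein-coding genes 992 Mb. These shares are therefore not a like comparison. Olfr338 had 7033, 6915 and 7833 bp in WT and 2833, 1833 and 2433 bp in KO, and Olfr175-ps1 had 2782 to 3121 bp in WT and 0 bp in each KO library. Olfr872 had a mean difference of -5056 bp. Olfr373, in the chromosome 8 segment, overlapped, with -3792 bp. These receptor genes are close copies of one another, so the placing of 50 bp reads among them is uncertain.

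Zinc-finger genes were covered over 14.4%, 14.6% and 13.9% in WT and over 12.99%, 12.7% and 13.6% in KO (exact permutation p = 0.1). Of 248 with a call 41 had less, 16.5%, and 12 had more, 4.84%, beside 10.2% and 4.65% of all protein-coding genes. Zfp81 had 18000, 16600 and 17800 bp in WT and 9000, 8078 and 4678 bp in KO, and Zfp385b a mean difference of -10667 bp. In the opposite direction Zfp462 had 40800, 32000 and 34600 bp in WT and 48600, 51600 and 43000 bp in KO, and Zfp951 had 26702, 34102 and 31902 bp against 40702, 43502 and 42502 bp. The class difference of -1.21 percentage points became 0.609 with equal numbers of calls.

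The clustered protocadherin genes, which encode adhesion proteins of neurons, were covered over 16.6%, 17.1% and 17.8% in WT and over 15.2%, 14.6% and 15.1% in KO (exact permutation p = 0.1). Enrichment over scaled input, over each library's own calls, was 3.77 ± 0.123 in WT and 3.24 ± 0.316 in KO (SD, n = 3, exact permutation p = 0.1). Of 34 with a call 19 had less covered sequence, 55.9%, and 0 had more, beside 10.2% and 4.65% of all protein-coding genes. The genes of a cluster overlap and share calls, so they are not independent. Pcdha1 had 74600, 78817 and 79017 bp in WT and 69800, 67000 and 66000 bp in KO, and Pcdha5, Pcdha4 and Pcdha2, which overlap it, had mean differences of -9026, -9000 and -8867 bp.

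Germline genes, which act in meiosis and piRNA silencing, had shares near those of all protein-coding genes. Of 23 with a call 2 had less covered sequence, 8.7%, and 1 had more, 4.35%, beside 10.2% and 4.65%. Sycp1, of the synaptonemal complex, had 19900, 18500 and 20700 bp in WT and 15100, 11300 and 18100 bp in KO, and Stag3, a meiotic cohesin, had 800, 0 and 0 bp in WT and 5793, 1993 and 7993 bp in KO. The Stag3 calls held 37.4, 29.4 and 23.6 ChIP reads per kb in KO. Unscaled input reads there were 25.6, 24.2 and 22.8 per kb. Tdrd9, the other member with less, lies in the chromosome 12 segment, and Mael overlapped, with a mean difference of -3333 bp. Without the segments the class was covered over 7.35% ± 0.476 in WT and 6.69% ± 1.03 in KO, with overlap (SD, n = 3, exact permutation p = 0.5).

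Of 24 genes that write, read or remove H3K9 methylation or act beside it, 20 had a call. Of these 1 had less covered sequence, 5.0%, and 2 had more, 10.0%, beside 10.2% and 4.65% of all protein-coding genes. So few members do not show a difference from other genes. Setdb1, the methyltransferase that TRIM28 recruits, had 3400, 0 and 0 bp in WT and 4076, 5800 and 6476 bp in KO. The Setdb1 calls in KO held few reads, 23.1 to 30.4 ChIP reads per kb beside unscaled input reads of 24.3 to 28.2 per kb. Pphln1, of the HUSH silencing complex, had 5800, 6400 and 6000 bp in WT and 7600, 7000 and 6800 bp in KO, and Zfp809, a KRAB zinc-finger gene, 8954 to 11841 and 2600 to 8287 bp. Uhrf1, which recruits the maintenance DNA methyltransferase, had 5286, 13200 and 11800 bp in WT and 0, 0 and 14086 bp in KO, so the groups overlapped. The Uhrf1 calls held 24.1 to 26.7 ChIP reads per kb in WT and 29.7 in KO replicate 3. Unscaled input reads there were 21.1 to 26.3 and 34.0 per kb. Hells, a chromatin remodeller gene, had 0 bp in each WT library and 3851, 0 and 7000 bp in KO. Among members outside the rule for naming, Zfp57 had no call in WT and 6000 bp in KO replicate 2 alone, and Trim28 had 5200 to 6235 bp in WT and 6035, 0 and 6635 bp in KO. These KO calls also held few reads, with 22.3 ChIP reads per kb at Zfp57 and 30.7 to 32.8 at Trim28. Unscaled input reads there were 25.2 and 30.6 to 30.9 per kb.

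Of 16 naive pluripotency genes 9 had a call, of which 0 had less and 2 had more, 1 of them outside the segments, beside 10.2% with less and 4.65% with more over all protein-coding genes. So few genes do not show whether this differs from other genes. Tfcp2l1, a naive-state transcription factor gene, had 3600, 0 and 4200 bp in WT and 4800, 8200 and 11400 bp in KO, and the other is Zfp42, in the chromosome 8 segment. The Tfcp2l1 calls held few reads in KO replicates 2 and 3, with 26.1 and 30.4 ChIP reads per kb. Unscaled input reads there were 25.6 and 25.8 per kb. In KO replicate 1 the Tfcp2l1 calls held 51.0 ChIP reads per kb beside 28.3 unscaled input reads. Esrrb, an orphan nuclear receptor gene of the naive network, had 13200, 21000 and 21000 bp in WT and 19800, 25628 and 24000 bp in KO, with overlap. Tcl1, in the chromosome 12 segment, also overlapped. Of 14 lineage genes 1, Gata4, had a call, with 1800, 0 and 1200 bp in WT and 1400, 2000 and 2400 bp in KO. All protein-coding genes together were covered over 4.83% ± 0.189 in WT and 4.60% ± 0.322 in KO, with overlap (SD, n = 3, exact permutation p = 0.4). Sequence outside genes was covered over 10.3% ± 0.0872 and 8.98% ± 0.275, without overlap (SD, n = 3, exact permutation p = 0.1).

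**Figure D4:**
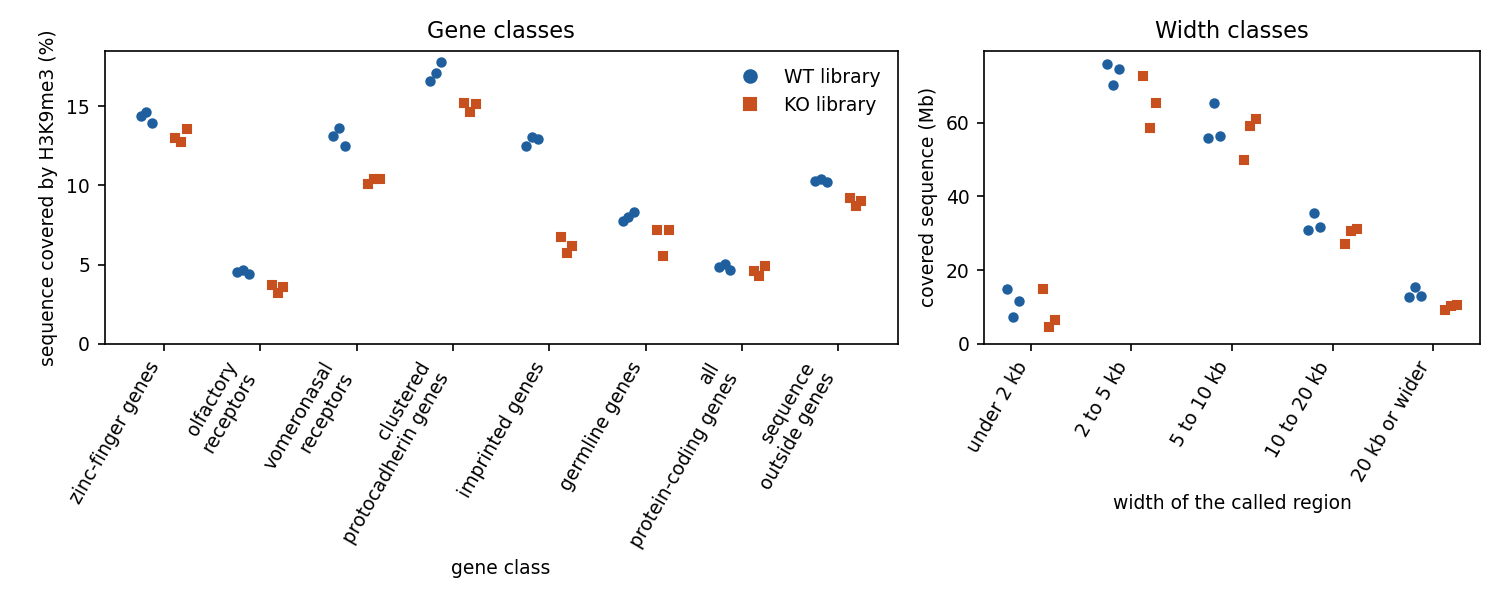
Share of sequence covered by H3K9me3 (percent) for 8 gene classes, and covered sequence (Mb) by width class of the called region. Points are single libraries (circles WT, squares KO), and the gap between genotypes, relative to its level, is widest among the gene classes for imprinted genes.

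Read density was compared where H3K9me3 was called in all 6 libraries, to ask whether the mark was denser or sparser where it remained. Of 25381 merged regions, 40 had a higher density in KO, 0.158%, and 59 a lower one, 0.232% (edgeR's quasi-likelihood test with the called length as an offset, Benjamini-Hochberg adjusted p under 0.05). Without TMM scaling, which moved the median log2 fold change of all regions from 0.0026 to 0.084, the balance turned to 81 higher and 23 lower. The 40 higher regions had a median input log2 ratio of 0.39 between KO and WT, centred on all regions, and 23 of them were above 0.3. The 59 lower regions had a median of 0.03. With regions of an input ratio over 0.3 in size left out, 15 higher and 36 lower regions were called.

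The lower region with the largest fold change lay in Spred2. Spred2, an inhibitor of the Ras and MAP kinase pathway, had a region at chr11:20016201-20027800 with 143, 115 and 128 reads per kb in WT and 49.9, 42.2 and 40.9 in KO, a log2 fold change of -1.52 (SE 0.0824, edgeR adjusted p = 1.15e-06). The region of Trappc9 and Peg13, chr15:72800801-72817000, had 103, 96.9 and 87.8 reads per kb in WT and 57.5, 54.5 and 54.5 in KO (log2 fold change -0.77, SE 0.0917, edgeR adjusted p = 0.00307). The covered length of Peg13 itself thus overlapped between genotypes while the reads per kb of its region were fewer in KO. The shortest called length of this region was 0.494 of the longest, so these densities are over unlike sequence. The region of Wdr92 and Pno1, genes of protein folding and ribosome assembly, had 60.0 to 73.0 reads per kb in WT and 31.1 to 32.04 in KO (log2 fold change -1.01, edgeR adjusted p = 0.00711). Rsrc1, Ttc37, Cep131, Zfp13 and Trim80 had log2 fold changes of -1.09, -0.81, -0.79, -0.79 and -0.74 (edgeR adjusted p = 0.0316, 0.0316, 0.0178, 0.0155 and 0.0434). The Rsrc1 region had 99.2 ChIP reads on average, an input log2 ratio of 0.73, and called lengths of which the shortest was 0.182 of the longest. This length ratio was 0.286 at Ttc37, 0.438 at Wdr92 with Pno1 and 0.468 at Zfp13. It was 0.575 at Trim80, 0.615 at Cep131 and 0.828 at Spred2. Where it is low, the densities are over unlike sequence. The input log2 ratio at Wdr92 with Pno1 was 0.305.

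Among the higher regions, the one of Ifitm7 and 2900011O08Rik, chr16:13967801-13986800, had 47.8, 43.0 and 45.5 reads per kb in WT and 93.9, 76.7 and 78.2 in KO (log2 fold change 0.88, SE 0.0844, edgeR adjusted p = 0.000592), with an input log2 ratio of 0.0096. Snx18, a sorting nexin gene, had 38.6, 33.7 and 29.9 reads per kb in WT and 68.2, 54.3 and 57.4 in KO (log2 fold change 0.83, edgeR adjusted p = 0.00149). At Pphln1, chr15:93439601-93447400, the values were 53.3, 45.6 and 45.7 in WT and 92.6, 73.3 and 82.2 in KO (log2 fold change 0.79, edgeR adjusted p = 0.00604), so that this HUSH subunit gene had both more covered sequence and denser reads. Foxn2, a forkhead factor gene, had a log2 fold change of 0.55 (edgeR adjusted p = 0.0350). At 9030025P20Rik, Gm3448 with Gm3435, C130026I21Rik and Ccdc7b the log2 fold changes were 0.64, 0.67, 0.61 and 0.84, with input log2 ratios of 0.46, 0.13, 0.59 and 0.60. The shortest called length was 0.554 of the longest at Ifitm7 and 0.5 at Ccdc7b, and 0.72 or more at the other named higher regions.

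Of these 16 named regions 6 kept an edgeR adjusted p under 0.05 without each library in turn, those of Spred2, Wdr92 with Pno1, Trappc9, Ifitm7, Snx18 and Pphln1. The other 10 lost it without at least 1 library. Regions over the listed classes were read from the same edgeR fit. Over all 25381 regions 40 were higher in KO, 0.158%, and 59 lower, 0.232%. Of 221 regions over zinc-finger genes 2 were higher and 7 lower in KO. Of 36 over imprinted genes 1, in Kcnq1, was higher and 2, in Grb10 and Trappc9, were lower. Of 140 regions over vomeronasal and 148 over olfactory receptor genes 0 were higher and 1 each was lower, and of 12 over clustered protocadherin genes and 21 over germline genes 0 passed.

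Over the whole of chromosomes 1 to 19, KO libraries had 173.6, 162.8 and 174.1 Mb covered and WT libraries 190.2, 193.4 and 187.4 Mb. On 18 of 19 chromosomes each KO library had less covered sequence than each WT library (exact permutation p = 0.1 for each, and the same after adjustment over 19), with a median relative difference of -11.9% over the 19. Chromosome 12 had the largest decrease, -22.3%, chromosome 7 had -17.4% and chromosome 8 had 18.9%. With equal numbers of calls 1 chromosome kept this order, and the difference in covered sequence was -2.17 Mb in place of -20.2 Mb (exact permutation p = 0.9). That of imprinted genes was then -5.18 percentage points in place of -6.58 (exact permutation p = 0.1). Enrichment over scaled input in all calls was 3.27 ± 0.145 in WT and 3.06 ± 0.225 in KO, with overlap (SD, n = 3, exact permutation p = 0.3).

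In the segments the covered sequence and the inputs differed together. In that of chromosome 8 KO libraries had 9.74, 9.58 and 10.1 Mb covered and WT libraries 7.55, 7.70 and 7.40 Mb, and the input reads per kb were 31.0 ± 0.322 and 24.5 ± 0.189 (SD over 3 lists that share 1 input). In that of chromosome 12 KO libraries had 0.316, 0.247 and 0.296 Mb and WT libraries 1.24, 1.20 and 1.21 Mb, with input reads of 12.7 to 13.3 per kb in KO and 21.2 per kb in WT. In that of chromosome 2 the input reads were 32.2 and 22.5 per kb, and the covered sequence 0.497 and 0.422 Mb. Copy number and H3K9me3 cannot be told apart there. The remainder of chromosome 8 had a relative difference of -10.5% and that of chromosome 12 of -14.1%.

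**Figure D5:**
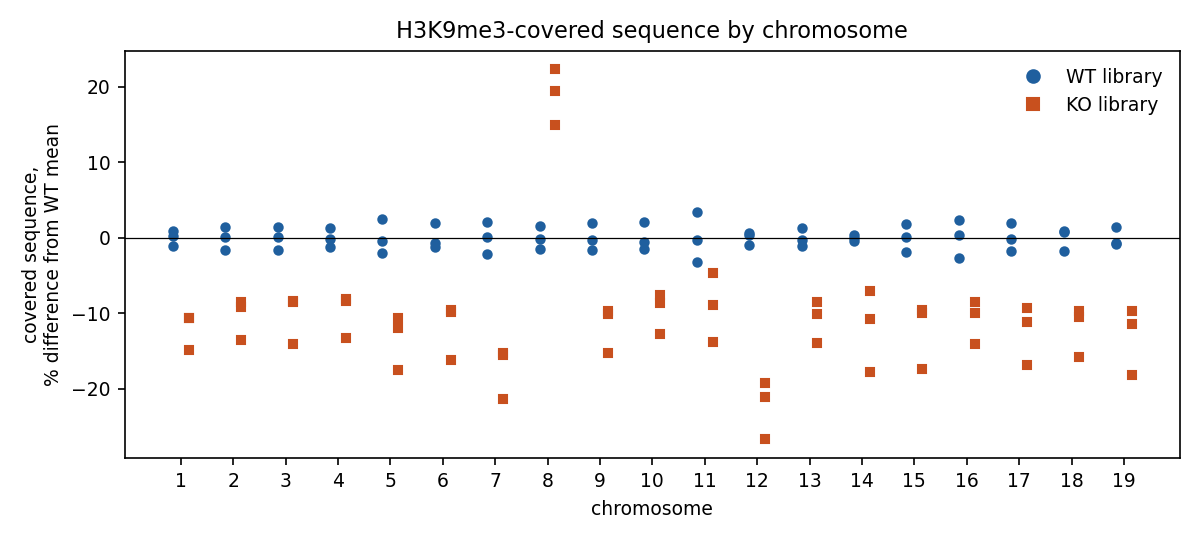
H3K9me3-covered sequence of each library as a percent difference from the WT mean of the same chromosome, for chromosomes 1 to 19. Points are single libraries (circles WT, squares KO), and the KO squares lie below the WT circles on each chromosome except chromosome 8, where they lie above.

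By width, regions of 20 kb or wider were the class without overlap between the genotypes. There were 440, 530 and 443 of them in WT and 313, 354 and 361 in KO, covering 13.8 ± 1.45 and 9.93 ± 0.756 Mb (SD, n = 3, exact permutation p = 0.1, adjusted over 5 classes 0.333). Their enrichment over scaled input was 3.85 ± 0.169 in WT and 3.36 ± 0.305 in KO (SD, n = 3, exact permutation p = 0.1). In the other 4 classes the genotypes overlapped, and the number of regions under 2 kb varied from 3971 to 11951 within KO. The share of covered sequence in regions of 10 kb or wider was 24.4% ± 1.76 in WT and 23.2% ± 2.201 in KO (SD, n = 3, exact permutation p = 0.6).

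The lost sequence amounted to 19.9 Mb in 20766 stretches with a median of 600.0 bp. Beside it, 139 Mb was kept, called in at least 2 of 3 libraries of each genotype, and 9.19 Mb was gained by the mirror rule. Lost sequence held 41.9% soft-masked repeats and 7.90 CpG dinucleotides per kb, kept sequence 52.4% and 9.57, and gained sequence 34.6% and 9.91, beside 33.5% and 8.51 over chromosomes 1 to 19. Protein-coding genes made up 29.5% of the lost, 23.1% of the kept and 48.9% of the gained sequence. Called sequence as a whole had 9.21, 9.14 and 9.18 CpG per kb in WT and 9.61, 9.46 and 9.56 in KO, without overlap (exact permutation p = 0.1), while its repeat share was 49.7% ± 0.442 and 49.6% ± 0.614 (SD, n = 3).

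Over the lost sequence as a whole the other marks differed less in size than at imprinted genes. H3K4me3 covered 0.539% ± 0.0272 in WT and 0.772% ± 0.0539 in KO (SD, n = 3, exact permutation p = 0.1), a relative difference of 43.2%, beside 40.9% over the kept sequence, 41.1% over the gained sequence and 14.6% over chromosomes 1 to 19. H3K27me3 covered 5.82% ± 0.694 and 6.97% ± 0.241 of the lost sequence, a relative difference of 19.9%, beside 27.2% over the kept sequence, 45.5% over the gained sequence and 12.3% over chromosomes 1 to 19. H3K27ac covered 15.5% ± 0.355 and 15.9% ± 0.208 of the lost sequence, with overlap, and H3K4me1 14.9% ± 0.0732 and 15.3% ± 0.200, without. The gained sequence was richer in these marks, with H3K27ac over 36.7% in WT and 41.2% in KO and H3K4me1 over 36.1% and 39.3%.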

How the data were processed

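ChIP-seq of H3K9me3 was compared in 6 libraries, 3 WT and 3 KO. Per the labels and the study's methods the authors trimmed reads with Trim Galore 0.6.6, marked duplicates with SAMtools 1.15, worked on GRCm38, and called H3K4me3 with MACS2 2.2.7.1 and the other marks with epic2 0.0.52, each against the input of the genotype at an FDR under 0.05. The aligner of the H3K9me3 reads and the sequencing depth are not given in the sources used here, and the reads in called regions set the precision. The deposited epic2 lists give per region the count of ChIP and of input reads, a p-value, an FDR, a log2 fold change and a score. The deposited H3K4me3 lists give a score, a fold ratio over input and −log10 p- and q-values, of which only positions were used. Input was scaled by the constant that the log2 fold change column implies.

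Calls on chromosomes 1 to 19 were used, with coordinates written 1-based and genes of GENCODE M21. Values per library were compared by exact permutation over the 20 assignments of 6 libraries, in both directions. Gene bodies were called by the rule of no overlap and means 1000 bp apart, which is no test. Merged regions called in all 6 libraries were fitted with edgeR 4.0.16 in R 4.3.3 (TMM, quasi-likelihood, offset of log called length), with DESeq2 1.42.0 as an alternative. On simulated counts for these 25381 regions 100% of those changed 2-fold and 59% of those changed 1.5-fold were recovered, with 6 false calls. The simulation used 1 dispersion for all regions and kept the called lengths fixed. Its shares therefore do not give the power in the real data. Named genes were the 8 largest decreases and increases of covered bp, the genes of the 8 regions with the largest log2 fold change in each direction, and up to 4 members of each list by absolute difference. Further imprinted genes, Zfp57 and Trim28 were named after their values were seen. The members and lists were chosen with earlier results of these data known. P-values measure the spread between clones. No pair of libraries agreed within counting noise. Alternatives were an FDR under 0.01, the same number of calls per list, leaving out segments or single libraries, other gene window, width and length rules, filters on reads or input, no TMM, and a replicate block.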

Additional observations from a re-analysis of the deposited data

How the results depend on the processing

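Taking the same number of top-ranked calls from each list fixes the region count, so that it gives no difference there. Under it 1 chromosome and 462 genes had less covered sequence, and the differences reversed to -1.19 ChIP reads per kb, 0.609 percentage points for zinc-finger genes, 0.286 for all protein-coding genes and 40067 bp for C130026I21Rik. The count of genes with more under it is not given here, so the excess of genes with less is not shown to hold there. Promoter windows in place of gene bodies gave 241 genes with less and 61 with more. Without 1 library at a time, the difference in ChIP reads per kb ranged from -3.52 to 3.26 and reversed without WT replicate 2 (-0.954), WT replicate 3 (-0.822) or KO replicate 1 (-3.52). The share in regions of 10 kb or wider ranged from -2.02 to 0.0964 percentage points and reversed without KO replicate 1. Genes with less ranged from 1152 to 1364 and with more from 544 to 800, highest without KO replicate 1 (769) and KO replicate 2 (800). These counts lie above the 942 and 430 of all libraries, because the rule of no overlap is easier to meet with fewer libraries. They do not show that more genes differed. Regions of higher density ranged from 7 to 25 and of lower density from 15 to 42, fewest without WT replicate 1 and, for lower density, also without WT replicate 3. Higher and lower regions numbered 204 and 227 over calls of similar length without the offset, 1075 and 902 over all calls without it, 81 and 23 without TMM, 15 and 36 with the input filter, and 105 and 132 with DESeq2. The replicate block gave 28 and 40, but deviations of same-numbered libraries correlated at only 0.0054, 0.0058 and 0.0053, so the numbers do not pair the libraries. The causes of the other shifts were not tested. The covered share of imprinted genes ranged from -6.85 to -6.34 percentage points without 1 library. With 3 libraries per genotype an exact p cannot fall under 0.1, each genotype has 1 input, and depth limits weak calls, whose number varies between lists.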

Other observations

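Chromosomes X and Y were outside the comparison. H3K9me3 covered 11.3, 11.01 and 11.4 Mb of chromosome X in the WT libraries and 9.97, 8.07 and 8.97 Mb in the KO libraries, a relative difference of -19.8% without overlap (exact permutation p = 0.1). On chromosome Y it covered 3.10, 2.84 and 2.95 Mb in WT and 2.12, 1.59 and 1.77 Mb in KO, a relative difference of -38.4% (exact permutation p = 0.1). Both were larger in size than the median of chromosomes 1 to 19, and that difference was not tested. The input reads on chromosomes X and Y were not compared, so copy number and H3K9me3 cannot be told apart there.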
